A study of Mus musculus with 16 samples.

Results

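The change in messenger RNA caused by the iron chelator dipyridyl (DP) was compared, gene by gene, between mouse fibroblasts with and without the CH1 domain of the coactivators CBP and p300. For each gene the difference of differences, called the CH1 difference here, was the log2 change with DP in the triCH1 lines minus that in the control lines, on the log2(signal + 50) scale. A value below 0 means a smaller rise, or a larger fall, where CH1 was missing. Genes were ranked by this value from the lowest, the most CH1-dependent by the rule, to the highest, and the ranking was repeated with the line flox2 as the only control. Of 18193 genes with a named probe set on the array, 11481 reached a signal of 200 on at least 2 arrays and were ranked. The last gene inside this filter was Atp8a2, whose second highest signal was 200, and the first outside was Lce1a1, at 199.9.

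The ranking used 8 of the 16 arrays of the study, 1 vehicle (ethanol) and 1 DP array for each of 4 lines of primary fibroblasts from e14.5 embryos. All lines had received, at passage 3, an adenovirus for Cre, a recombinase that cuts conditional (flox) alleles out of the genome, and had then expanded at least 100 fold. The control line flox1 carried 1 conditional allele of CBP and the control line flox2 1 conditional allele of p300. In triCH1flox1 both p300 alleles and 1 CBP allele had a deleted CH1 domain, and the remaining CBP allele was conditional. In triCH1flox2 both CBP alleles and 1 p300 allele had the deletion, and the remaining p300 allele was conditional. The triCH1 lines thus had 3 of 4 alleles without CH1, and Cre was directed at the remaining allele. Cells were kept under normoxia, given ethanol and, 30 min later, ethanol again or 100 µM DP, and lysed 3 h after that. On the other 8 arrays the first addition was 100 ng/ml trichostatin A (TSA), which blocks histone deacetylases. Each class held 2 lines of different genotype, each genotype was 1 line, and no line had a replicate culture. Every p-value below thus sets a change against a spread that comes from how far the 2 lines of a class differed in their response to the treatments. Steady differences in level between lines are removed first. The spread includes the noise of single arrays and is pooled over all 16 arrays, those with TSA among them. It is also drawn towards that of other genes of similar signal, with 6 residual and 10.4 prior degrees of freedom.

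Cells sense oxygen through prolyl hydroxylases that need iron. When oxygen or iron is scarce, these enzymes stop marking the alpha subunits of the hypoxia-inducible factor HIF for destruction, and HIF then binds DNA with its partner Arnt and activates genes of glycolysis, iron supply, blood vessel growth and its own control. CBP and p300 are large acetyltransferases that serve as coactivators of many transcription factors, and their CH1 domain is a docking site for the C-terminal activation domain of HIF alpha subunits and for the competing Cited proteins.

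The 8 arrays had median signals of 111 to 154, with 37.2% to 42.6% of probe sets at 200 or more. The flox1 vehicle array had a ratio of 3' to 5' control signal of 2.59 for Gapdh, against 0.907 to 1.26 on the other 15 arrays of the study. Its 18S ribosomal RNA signal was 9280, and that of the flox2 DP array was 8257. The main counts are also given without each of these arrays, as are the values of some genes and lists that moved. Crebbp (CBP) had signals of 1425 and 1633 in flox1 and 1437 and 1554 in triCH1flox1, against 1880 to 2500 in the other lines, and Ep300 had 605 to 941 in flox2 and triCH1flox2, against 1054 to 1945. The place of these probe sets relative to the deleted parts is not given in the sources used here. Xist, the RNA of the silenced X chromosome, ran from 20.8 to 84.9 on the 4 control arrays and from 2326 to 3525 on the 4 triCH1 arrays, and the Y-linked Eif2s3y had 974 to 1510 and 8.90 to 82.9. Sex and CH1 therefore cannot be told apart in any value below. Of 12 fibroblast markers, 11 had signals of at least 200 on all 8 arrays, with sums of 231776 to 251656 in the control and 200630 to 219520 in the triCH1 lines. All 5 erythroid and 7 of 8 endothelial markers on the array were under 200 on all 8 arrays. Markers at 200 or more on all 8 arrays were 3 of 8 neural, 1 of 8 muscle, 1 of 8 epithelial, 1 of 6 adipocyte and 0 of 8 macrophage genes. Neural sums were 5745 to 8955 in the control and 4974 to 6994 in the triCH1 lines, muscle sums 6658 to 8969 and 5558 to 7015, and the part of such cells in the results was not tested.

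Before the values, the DNA just upstream of the start is shown for 5 genes that rose with DP. They are the called genes Egln3 and Ero1a, then Slc2a1 and Bnip3, and Ak4 near the CH1-independent end. Slc2a1 and Bnip3 had intermediate values among the genes induced by DP, but values on the low side of all ranked genes. The sequences are the 250 bases before the start site given by RefSeq (GRCm38.p6), written 5' to 3' on the gene's strand. They lie at chr12:54203875-54204124 (Egln3, minus strand), chr14:45318573-45318822 (Ero1a, minus), chr4:119108495-119108744 (Slc2a1, plus), chr7:138909507-138909756 (Bnip3, minus) and chr4:101419039-101419288 (Ak4, plus). Capitals mark the core of the HIF binding motif, ACGTG or GCGTG, on either strand, so that CACGT and CACGC are marked too. Where matches overlap, the capitals run together.
Egln3: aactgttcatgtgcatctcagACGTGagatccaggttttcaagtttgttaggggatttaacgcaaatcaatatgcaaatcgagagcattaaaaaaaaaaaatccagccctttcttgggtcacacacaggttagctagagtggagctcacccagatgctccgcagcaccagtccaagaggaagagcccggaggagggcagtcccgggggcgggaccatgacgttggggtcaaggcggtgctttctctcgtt
Ero1a: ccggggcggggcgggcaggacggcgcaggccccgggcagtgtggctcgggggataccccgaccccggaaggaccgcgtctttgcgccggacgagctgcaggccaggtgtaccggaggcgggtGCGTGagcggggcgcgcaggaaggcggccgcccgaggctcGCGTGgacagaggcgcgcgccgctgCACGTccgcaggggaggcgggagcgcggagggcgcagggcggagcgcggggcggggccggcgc
Slc2a1: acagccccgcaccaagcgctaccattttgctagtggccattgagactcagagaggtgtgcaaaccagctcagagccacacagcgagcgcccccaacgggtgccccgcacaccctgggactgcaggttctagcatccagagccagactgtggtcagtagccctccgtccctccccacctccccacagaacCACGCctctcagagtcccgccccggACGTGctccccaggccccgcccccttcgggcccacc
Bnip3: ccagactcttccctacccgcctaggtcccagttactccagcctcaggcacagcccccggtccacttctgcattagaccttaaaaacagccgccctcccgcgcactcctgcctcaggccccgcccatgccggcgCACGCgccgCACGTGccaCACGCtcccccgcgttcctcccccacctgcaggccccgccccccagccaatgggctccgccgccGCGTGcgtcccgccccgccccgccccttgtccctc
Ak4: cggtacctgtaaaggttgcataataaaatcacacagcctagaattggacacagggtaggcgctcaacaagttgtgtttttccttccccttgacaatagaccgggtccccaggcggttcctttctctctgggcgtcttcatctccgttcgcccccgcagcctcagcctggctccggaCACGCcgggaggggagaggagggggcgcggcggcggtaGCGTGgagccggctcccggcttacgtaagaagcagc

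Egln3 had 1 match, 229 bases before its start, Ero1a 3, Slc2a1 2, Ak4 2 and Bnip3 5, among them the palindrome CACGTG, which counts once on each strand. The counts of matches thus did not follow the order of the ranking in these 5 genes. Ndrg1 is named only.

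In the ranking without TSA, 3 genes passed the test of the CH1 difference across all genes (limma, adjusted p under 0.05), all of them lower in the triCH1 lines. They were 0.0261% of the genes ranked, and 0 genes passed with a higher value. Egln3 is a prolyl hydroxylase that marks HIF alpha subunits, Ero1a is an oxidase that helps proteins fold in the endoplasmic reticulum, and Ndrg1 is a stress response gene known as a marker of hypoxia. All of them are known HIF targets and rose with DP in every line. At an unadjusted p under 0.05 there were 559 genes (4.87%), of which 264 were lower (2.3% of those ranked) and 295 higher (2.57%), so that the ranking as a whole had no more genes on its lower side.

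Egln3 had vehicle signals of 259 in flox1 and 239 in flox2, which rose to 3757 and 4243.5 with DP. In triCH1flox1 and triCH1flox2 its signals went from 214 to 797 and from 152 to 609. The DP signals of both triCH1 lines were far below those of both control lines, while the vehicle signals lay closer together. Here and below, fewer responding cells and less RNA per cell cannot be told apart, as RNA came from whole cultures. The log2 rise was 3.76 in the control class and 1.70 in the triCH1 class, a CH1 difference of -2.06 (SE 0.282, n = 2 lines per class, 95% interval -2.66 to -1.46, limma adjusted p = 0.0104). The triCH1 lines thus kept 45.1% of the log2 rise.

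Ero1a had vehicle signals of 1152 and 1011 in flox1 and flox2, and DP signals of 7319 and 8794. In triCH1flox1 and triCH1flox2 the vehicle signals were 1243 and 1215 and the DP signals 3455 and 3357. Its level without DP was thus somewhat higher in both triCH1 lines, which makes up a small part of the CH1 difference. The larger part lay in the DP arrays. The CH1 difference was -1.40 (SE 0.195, 95% interval -1.82 to -0.99, limma adjusted p = 0.0104), and 50.5% of the rise was kept.

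Ndrg1 rose from 502 to 3282 in flox1 and from 469 to 3295 in flox2. In triCH1flox1 it rose from 460.0 to 986 and in triCH1flox2 from 389 to 911. The DP signals of the 2 control lines were nearly the same, and those of both triCH1 lines were well below them. The CH1 difference was -1.56 (SE 0.253, 95% interval -2.10 to -1.03, limma adjusted p = 0.0458), and 40.8% of the rise was kept. The 5 probe sets of Ndrg1 that passed the filter had CH1 differences from -1.24 to -2.46, the second probe set of Egln3 had -1.49, and the other probe sets of Ero1a had -0.46 and -1.50.

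Leaving out any 1 of the 4 lines, or the flox2 DP array, left 0 genes past the threshold, although the CH1 difference of Egln3 stayed between -2.20 and -1.77 over all 15 other settings, that of Ero1a between -1.63 and -1.12 and that of Ndrg1 between -1.72 and -1.47. When the flox1 vehicle array was left out, 3 genes passed, namely Egln3, Ero1a and Ppp1r3c, and Ndrg1 did not. Over the 15 other settings Egln3 passed in 8, Ero1a in 7 and Ndrg1 in 2, with adjusted p-values of Ndrg1 from 0.00956 to 0.531.

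**Figure D1:**
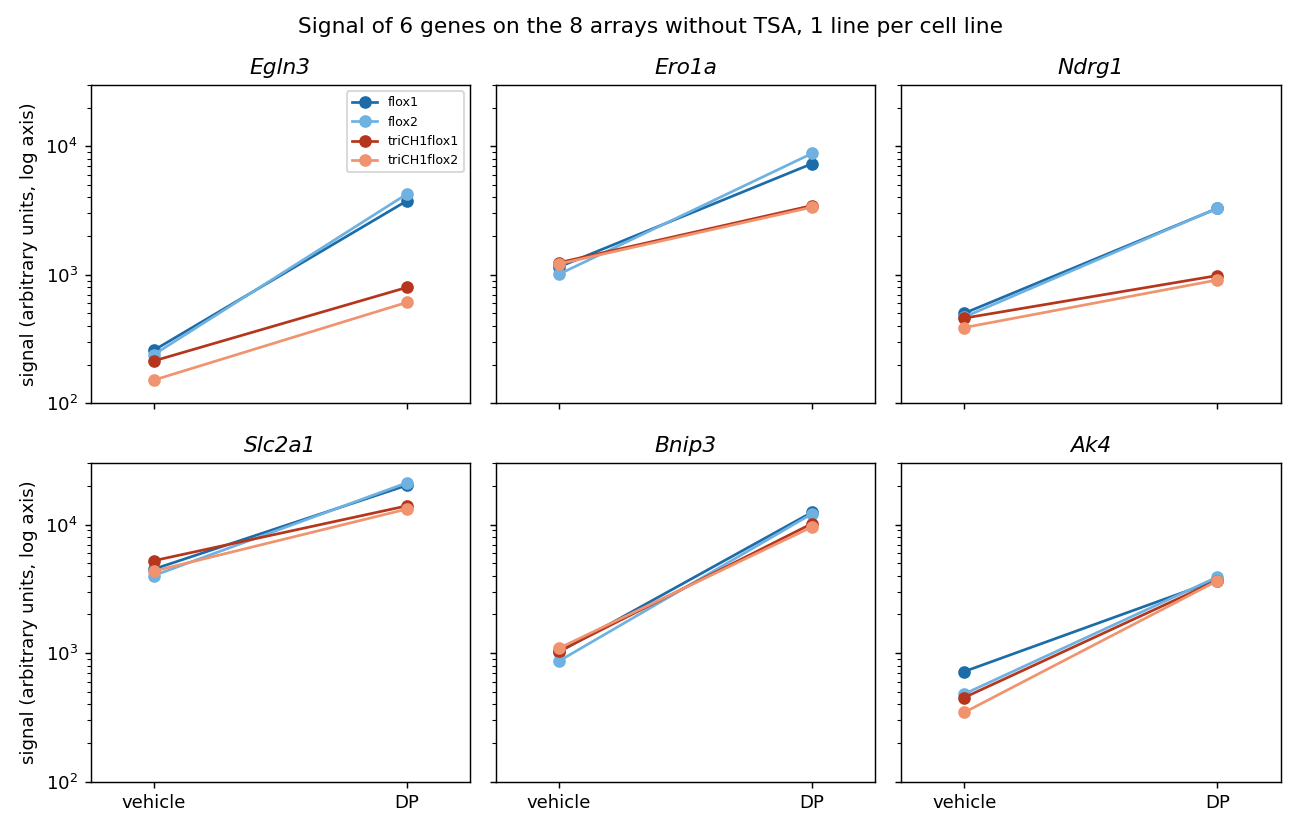
Signal (arbitrary units, log axis) on the vehicle and DP arrays without TSA for 6 genes, with 1 line per cell line, blue for the control and red for the triCH1 lines; each point is 1 array and there are no error bars. For Egln3, Ero1a and Ndrg1 the DP points of the triCH1 lines lie far below those of the control lines, for Slc2a1 the gap is smaller, and for Bnip3 and Ak4 the DP points are close together.

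Next to these 3 genes in strength of evidence stood Ier3, an early response gene that guards against cell death, with a CH1 difference of -0.98 (SE 0.168, adjusted p = 0.0706). Its signals rose from 2116 to 12247 in flox1 and from 1917 to 12528 in flox2, and from 2134 to 6141 and from 1430 to 4844 in the triCH1 lines. The DP signals of the classes did not overlap, and 62.3% of the rise was kept. Zfp395, a zinc finger gene, had -2.08 (SE 0.380, adjusted p = 0.100) from vehicle signals of 36.0 to 263, which make its fold depend on the pseudocount. Slc2a1, the glucose transporter GLUT1, had -0.77 (SE 0.144, adjusted p = 0.100), with DP signals of 20209 and 21137 in the control lines and 13990.1 and 13208 in the triCH1 lines. Its other probe sets had -1.19 and -1.20.

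To describe the ranking among genes that respond to DP, the genes with a mean log2 rise of at least 1 over the 4 lines and a limma adjusted p under 0.05 were taken. This held for 80 genes, 0.697% of those ranked. The 4 lines enter the mean with equal weight. The mean is uncorrelated with the CH1 difference only if both classes vary alike, and the effect of the choice of genes on the values below was not tested. The last gene inside was Prelid2, with a mean rise of 1.00 and a CH1 difference of 0.05, and the first outside was Narf, with 0.99 and -1.12. All 80 reached a signal of 200 on 2 of the 8 arrays. This was so in both classes for 70 genes, while 8 did so on fewer than 2 triCH1 arrays and 3 on fewer than 2 control arrays.

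Of the 80 DP-induced genes, 70 had a CH1 difference below 0, against 46.9% of all ranked genes. The count was 64 without the flox1 vehicle array and 65 without the flox2 DP array. Their median CH1 difference was -0.51, against 0.02 over all genes. The median log2 rise was 1.84 in flox1, 1.73 in flox2, 1.24 in triCH1flox1 and 1.26 in triCH1flox2, so both triCH1 medians lay below both control medians. For 43 of the 80 genes both triCH1 changes were below both control changes, which held for 12.8% of all ranked genes. For 3 genes they were above both (15.5% of all genes), and for 34 the classes overlapped. At an unadjusted p under 0.05, 32 of the 80 were lower (2.3% of all genes) and 0 higher (2.57%).

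The share of the log2 rise that the triCH1 lines kept had a median of 70.9% over the 80 genes, with quartiles of 59.5% and 87.3% and a range of 17.8% to 203%. Under 50% was kept for 13 genes, 50% to 100% for 57 and 100% or more for 10. Levels without DP did not show the same shift, since 36 of 80 genes were lower in the triCH1 vehicle arrays (51.4% of all genes) with a median class difference of 0.03. On the DP arrays 71 of 80 were lower (48.2% of all genes), with a median of -0.50. Of the 80, 68 passed the test for a rise in the control lines alone (1.22% of all genes) and 51 in the triCH1 lines alone (0.566%), in separate tests that do not compare the classes. The 80 were chosen by the mean of these rises, so counts far above the shares of all genes follow from the choice.

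**Figure D2:**
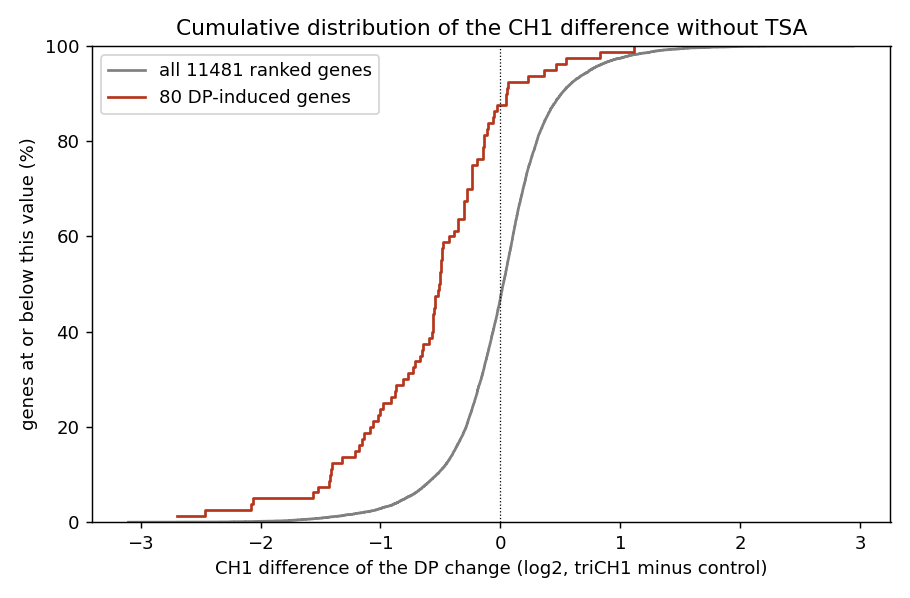
Cumulative distribution of the CH1 difference (log2, triCH1 minus control) without TSA for the 80 DP-induced genes and for all 11481 ranked genes, as the percentage of genes at or below each value. The curve of the DP-induced genes lies to the left, with a median of -0.51 against 0.02.

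The 2 pairs of lines that share a conditional gene have no array in common and were set side by side. In the CBP-conditional pair, triCH1flox1 against flox1, 67 of the 80 genes had a CH1 difference below 0 (48.6% of all genes) and the median was -0.58. In the p300-conditional pair, triCH1flox2 against flox2, 60 were below 0 (47.7%) and the median was -0.41. Both pairs were below 0 for 53 genes (22.3% of all genes), and both were above 0 for 6 (share of all genes not computed). The median share kept was 63.8% in the first pair and 77.0% in the second. Across the 80 genes the values of the 2 pairs had a Spearman correlation of 0.30 and a Pearson correlation of 0.33, and across all ranked genes of -0.04 and -0.02. This is a description over genes measured on the same arrays, which are not independent.

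The order of single genes differed between the pairs. Mt2 had -2.12 in the CBP-conditional pair and -0.53 in the p300-conditional pair, Hmox1, the heme-degrading enzyme, had -1.96 and -0.31, and Pfkfb3, a stimulator of glycolysis, -2.24 and -0.60. Ppp1r3c, a regulator of glycogen synthesis, had -1.50 and -3.89, and Ankrd37 0.13 and -2.17. Stc1, a secreted glycoprotein hormone, had -1.42 and 0.94, so that its mean of -0.24 stands for opposite values. In contrast, Ndrg1 (-1.57 and -1.56), Slc2a1 (-0.75 and -0.79), Hilpda (-1.38 and -1.45) and Hk2 (-0.59 and -0.52) had nearly the same value in both. These differences between pairs rest on 1 line each and were not tested.

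With flox2 as the only control, 65 of the 80 genes were below 0 (47.8% of all genes), with a median of -0.46. With flox1 as the only control 66 were below 0 (share of all genes not computed), with a median of -0.62. Every array of both comparisons is also in the full ranking, so they are not a separate check of it. Egln3 moved from rank 18 to 41 of 11481, Ero1a from 131 to 168, Ndrg1 from 84 to 172 and Ppp1r3c from 4 to 1. Larger shifts were those of Nampt, an enzyme of NAD synthesis, from 209 to 1512, and of Slc30a1, a zinc exporter, from 944 to 3626. In both, the flox1 vehicle signal was low, at 142 against 524 in flox2 for Nampt and 302 against 479 for Slc30a1. Without that array the CH1 differences were -0.43 for Nampt and -0.31 for Slc30a1, against -1.21 and -0.61 with it. At the other end, Ak4 went from rank 10157 to 7645 and Trp53i11 from 10468 to 4320.

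Of 87 genes followed through the settings, 27 changed sign or moved by over 1.5 times without the flox1 vehicle array and 23 without the flox2 DP array. Without the flox1 vehicle array, Ankrd37 had -1.85 in place of -1.02, Slc2a3 -1.41 in place of -0.91, Plod2 -0.33 in place of -0.51, Egln1 -0.09 in place of -0.24, and Ak4 0.17 in place of 0.47. Trp53i11 turned from 0.55 to -0.17. Without the flox2 DP array, Epas1 had -0.12 in place of -0.64, Rgcc 0.32 in place of 0.83, and Slc30a1 -0.92 in place of -0.61.

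**Figure D3:**
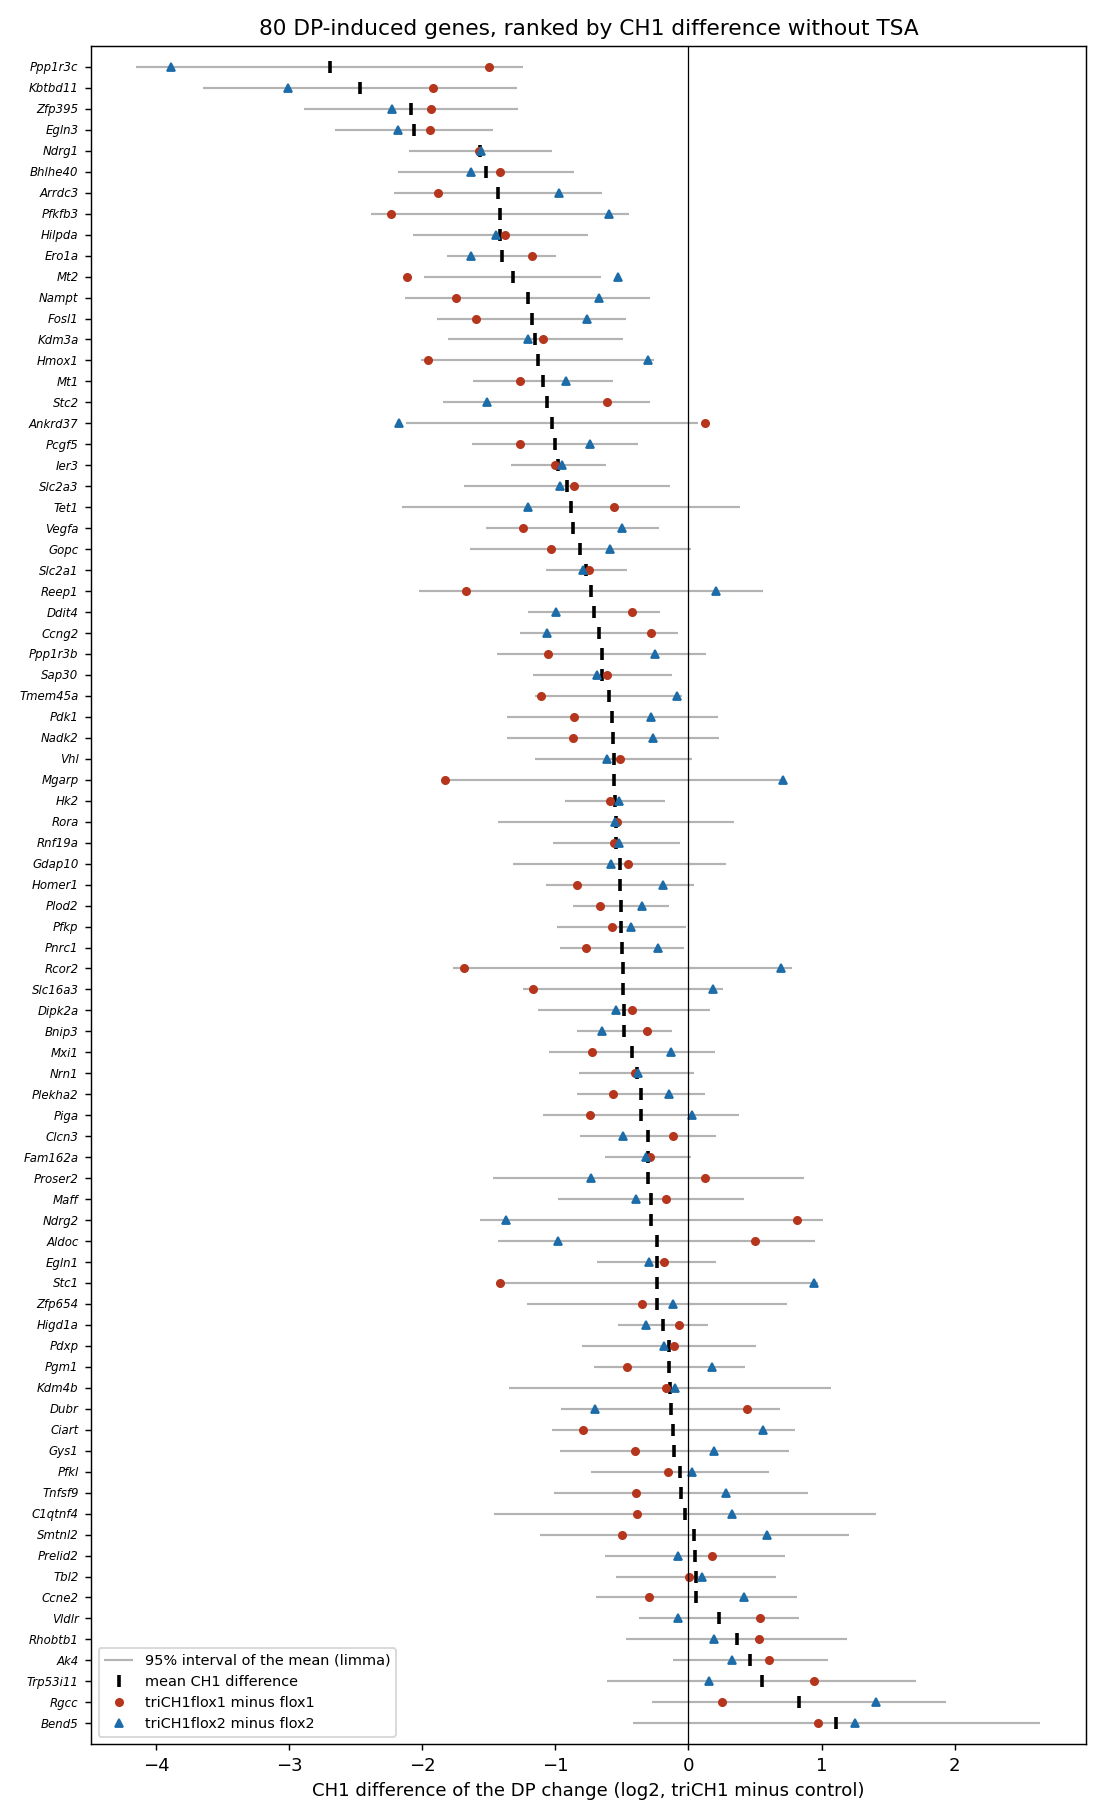
CH1 difference (log2, triCH1 minus control) of the 80 DP-induced genes in rank order. Black ticks are means over the lines with their 95% limma intervals in grey, red circles the CBP-conditional pair and blue triangles the p300-conditional pair; 70 means lie below 0 and the intervals of 48 genes include 0.

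At the CH1-dependent end of the 80 genes, the 4 lowest CH1 differences were those of Ppp1r3c (-2.69, SE 0.687), Kbtbd11 (-2.46, SE 0.558), Zfp395 (-2.08) and Egln3 (-2.06). Ppp1r3c had signals of 191 and 1288 in flox1, 9.0 and 1684 in flox2, 16.9 and 81.4 in triCH1flox1 and 102 and 251 in triCH1flox2. Its vehicle signals did not separate the classes, but its DP signals did by a wide margin. Kbtbd11 went from 59.7 to 795 and from 17.7 to 881 in the control lines and from 121 to 299 and from 140.4 to 276 in the triCH1 lines. For both, vehicle signals were near background, so that the size depends on the pseudocount, and their adjusted p-values were 0.460 and 0.288.

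The next values belonged to genes of several roles. Bhlhe40, a transcriptional repressor of the circadian clock, had -1.52 (SE 0.313, adjusted p = 0.185), with DP signals of 4935 and 5467 in the control and 3382 and 2666 in the triCH1 lines. Its vehicle signals were 888 and 688 in the control lines and higher, 1670 and 1076, in the triCH1 lines. Kdm3a, an iron-dependent histone demethylase, had -1.15 (SE 0.311), Fosl1, a subunit of AP-1, had -1.18 and Nampt -1.21. By their other probe sets Fosl1 had -1.735 and Nampt -0.456. Arrdc3, an arrestin family member, kept 17.8% of its rise, the smallest share of the 80. Its mean log2 rise in the triCH1 lines was 0.31. The signals were 714 and 721 in triCH1flox1 against 452 and 1819 in flox1, so the rise that was kept lay in triCH1flox2. Pfkfb3 had -1.42, but its other probe set had log2 changes of 0.22 in the control and -0.23 in the triCH1 lines. Hilpda, a protein of lipid droplets, went from 326 to 2256 and from 266 to 2549.5 in the control lines and from 341 to 874 and from 299 to 999.8 in the triCH1 lines, and kept 50.1%.

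At the CH1-independent end, Bend5 (1.11), Rgcc (0.83), Trp53i11 (0.55), Ak4 (0.47), Rhobtb1 (0.36) and Vldlr, a lipoprotein receptor (0.23), had values above 0, and Ccne2, Tbl2, Prelid2 and Smtnl2 had 0.04 to 0.06. None of these values passed. Ak4, a mitochondrial adenylate kinase, had even signals with DP but uneven ones without it. Its DP signals were 3704, 3912, 3667 and 3651 in flox1, flox2, triCH1flox1 and triCH1flox2. Both triCH1 values were only just below both control values, and its vehicle signals were 719, 481, 452 and 346 in the same order. Its CH1 difference of 0.47 (SE 0.276) had a 95% interval from -0.12 to 1.05, and 118% of its rise was kept. Vldlr had DP signals of 3286 and 4008 in the control and 2868 and 2953 in the triCH1 lines. Its other probe sets had -0.38 to 0.72, those of Tbl2 -0.56 and 0.69, and that of Ak4 0.23. Bend5, Rgcc, Trp53i11 and Smtnl2 had mean vehicle signals under 100, and the other probe sets of Rgcc and Smtnl2 had -1.23 and -1.43.

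A value near 0 is a statement about size only within its interval. Of the 80 genes, 48 had a 95% interval that included 0, 21 had an interval within -1 and 1 and 0 had one within -0.5 and 0.5. Bnip3, a mitophagy receptor, had a lower value and still a large rise in every line. Its signals went from 1021 to 12480 in flox1 and from 868 to 12143 in flox2, and from 1036 to 10192 and from 1093 to 9598 in the triCH1 lines. The CH1 difference was -0.48 (SE 0.170, 95% interval -0.84 to -0.12, adjusted p = 0.979), and 86.8% of the rise was kept.

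By role, HIF targets in glucose uptake and glycolysis had 23 of 26 genes measured, 19 of them below 0, with 0 called, 6 lower at an unadjusted p under 0.05 and a median of -0.24. Over the other settings this median ran from -0.54, without triCH1flox2, to -0.19, and it was -0.37 without the flox1 vehicle array. For this and the following lists the shares over all ranked genes are 46.9% below 0, and 2.3% lower and 2.57% higher at an unadjusted p under 0.05. Within this list the values ran from Ppp1r3c, Pfkfb3 and Slc2a3, the neuronal glucose transporter GLUT3 (-0.91), through Slc2a1 and the hexokinase gene Hk2 (-0.55, 76.6% kept) to Pgk1 (-0.18, 95% interval -0.44 to 0.08) and Ldha (0.03, -0.35 to 0.41). The other probe sets of Pgk1 had 0.205 and -0.55, so its value depends on the probe set. Pgk1 had vehicle signals of 12451 to 13006 and DP signals of 18280 to 21479, and its DP signals were slightly lower in both triCH1 lines. Pdk1, a kinase that holds back pyruvate oxidation, had -0.57 and Slc16a3, the lactate exporter, -0.49, with 81.4% and 75.8% kept. The other probe sets of Pdk1 had -0.83 to 0.08.

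The HIF targets of feedback and oxygen sensing had a median of -0.51 over 15 of 17 genes (-0.65 to -0.41 over the other settings), with 14 below 0, 5 lower at an unadjusted p under 0.05 and 2 called, Egln3 and Ero1a. Egln1, the main prolyl hydroxylase of most tissues, had -0.24 (SE 0.211), with 84.5% kept, against 45.1% for Egln3, and -0.53 by its other probe set. Vhl, the recognition subunit of the ligase that destroys HIF alpha subunits, had -0.56 (SE 0.280), with DP signals of 1613 and 2217 in the control and 1112 and 1426 in the triCH1 lines. The growth and stress targets had a median of -0.57 over 22 genes (-0.62 to -0.48 over the other settings), with 17 below 0, 9 lower and 2 higher at an unadjusted p under 0.05 and 1 called, Ndrg1. Ddit4, an inhibitor of mTOR signalling, had -0.71 (SE 0.236, 66.3% kept) in this list.

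The 8 of 10 measured targets in mitochondria and mitophagy had a median of -0.36 (-0.39 to -0.24 over the other settings), with 6 below 0 and 0 called. The 13 of 15 angiogenic and secreted targets had a median of -0.13, with 10 below 0 and 0 called. This median was -0.42 in the CBP-conditional and 0.05 in the p300-conditional pair, and ran from -0.34 to 0.04 over the other settings, so it has no stable sign. Vegfa, the angiogenic growth factor, had -0.87 (SE 0.306), with signals from 592 to 3346 and 574 to 2344 in the control and from 1101 to 2517 and 611 to 1747 in the triCH1 lines. The secreted hormone gene Stc2 had -1.06, and -1.54 and 0.22 by its other probe sets, and Adm, a vasodilator peptide, -0.38, and -0.97 by its other one. Car9, a carbonic anhydrase, had signals of 21.4 to 347 and a value of -1.18 (SE 0.707), which is without a reliable size. P4ha1 and Plod2, which modify collagen, had -0.36 and -0.51, and -1.19 and -0.64 by their other probe sets. Over all 80 measured of 89 HIF targets in these groups, 65 were below 0, 25 lower and 2 higher at an unadjusted p under 0.05, and the median was -0.37.

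The DP-induced genes were evenly split by these lists. The 40 that are on a HIF target list had a median CH1 difference of -0.56, with 38 below 0 and 67.1% kept, and the 40 on no such list had -0.49, with 32 below 0 and 72.6% kept. The difference between these medians was not tested.

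The genes of the metal response, which binds and exports zinc and similar ions through the factor Mtf1, had a median of -0.61, with 7 of 7 genes below 0, 3 lower at an unadjusted p under 0.05 and 0 called. The median was -0.92 without the flox2 DP array and ran from -0.97, without flox2, to -0.40, with the mean of all probe sets. The metallothionein Mt1 went from 2686 to 17242 and from 2396 to 18108 in the control lines and from 3328 to 8851 and from 2781 to 11074 in the triCH1 lines. Its DP signals did not overlap between the classes, and the CH1 difference was -1.09 (SE 0.248, adjusted p = 0.288). Its other probe set, with a mean signal of 222, had 0.93, and the mean of both was -0.08. Mt2 had -1.32 (SE 0.316), Hmox1 -1.13 (SE 0.413) and Slc30a1 -0.61 (SE 0.300, 95% interval -1.24 to 0.03). The 11 measured genes of iron handling had a median of 0.14, with 5 below 0, but it ran from -0.07 to 0.2 over the other settings and so has no stable sign. In it Tfrc, the transferrin receptor, whose messenger is stabilised when iron is low, had -0.21 (SE 0.178, 95% interval -0.58 to 0.17), with DP signals of 4239 and 4358 in the control and 5015 and 3916 in the triCH1 lines.

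Lists of other processes had medians closer to 0 than the HIF target lists, apart from the angiogenic list at -0.13. Their median log2 changes with DP in the control lines, from p53 targets to immediate early genes below, ran from -0.16 to 0.35. The angiogenic list had 0.30 and the other HIF target lists 1.28 to 1.49. A list with little rise can show little loss of it, so a median near 0 here does not show independence of CH1. The medians of the CH1 difference were 0.06 for 15 p53 targets, -0.14 for 14 genes of the ATF4 stress response, -0.10 for 11 NF-kB targets, 0.02 for 8 interferon genes, 0.07 for 18 genes of DNA replication, -0.01 for 18 of mitosis and -0.01 for 12 of cholesterol synthesis, with 0 called in each. Over the other settings these medians lay between -0.29 and 0.34, both reached by the interferon genes, and all but that of the ATF4 genes took both signs; the p53 median was -0.11 without the flox1 vehicle array. The 11 CREB targets had a median of -0.20, with 10 below 0 and 0 lower at an unadjusted p under 0.05. The 16 immediate early genes had -0.13, with Fosl1 and Egr2 (-0.80, SE 0.313) lower at an unadjusted p under 0.05, and the medians of both these lists took both signs over the settings. Egr2 had -0.10 by its other probe set. The 12 fibroblast markers had a median of 0.08, with 2 below 0, 1 higher at an unadjusted p under 0.05, and 7 with both triCH1 changes above both control changes (15.5% of all genes). The 4 measured sex-linked genes had -0.23, and the markers of macrophages, epithelium, neural cells, muscle and adipocytes, with 3 to 6 genes measured each, had medians of -0.21 to 0.21.

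The genes of the HIF system itself, which encode its subunits, its hydroxylases and the ligase that destroys it, formed a list of 18. Of 16 measured, Egln3 was the only one to pass, and the median was -0.14 (-0.22 to 0.06 over the other settings). Hif1a, the main regulated subunit, had -0.05 (SE 0.156, 95% interval -0.37 to 0.28) with signals of 5958 to 7449 on the 8 arrays. Arnt had -0.36 (SE 0.295) and signals of 575 to 843, with 0.71 and -0.95 by its other probe sets, while those of Hif1a had -0.41 and -0.29. Epas1, the HIF-2 alpha subunit, had signals of 49.5 to 359 and opposite values in the pairs (0.64 and -1.91). Cited2, which competes with HIF for CH1, had 0.22 (SE 0.172), and 0.67 by its other probe set. Cited4, Os9, Elob, Eloc, Cul2, Egln2, Hif1an, Hif3a and Arnt2 had values from -0.56 to 1.46, and those of Hif3a and Cited4 rest on signals under 200 on several arrays. Crebbp and Ep300 had -0.26 and 0.01.

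All 11 genes of a list of coactivators, Crebbp and Ep300 among them, were measured; 8 were below 0 and 0 passed, with a median of -0.12. Med23, a subunit of the Mediator complex, had -1.15 (SE 0.351, adjusted p = 0.889) and Ruvbl2, an ATPase of chromatin complexes, -0.75 (SE 0.243), both lower at an unadjusted p under 0.05. Med23 rose from 210 to 493 and from 433 to 568 in the control lines and fell in signal from 575 to 352 and from 499 to 413 in the triCH1 lines. The acetyltransferase genes Kat2a, Kat2b and Kat5 had 0.22, -0.26 and -0.20, and the nuclear receptor coactivators Ncoa1, Ncoa2 and Ncoa3 -0.05, -0.03 and 0.17. Cdk8, a Mediator kinase, had -0.12.

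The ends of the ranking over all genes were made up mainly of weak signals. Of the 100 lowest ranks, 85 had a mean signal under 200 over the 8 arrays, and of the 100 highest 81, against 19.4% of all ranked genes. The median SE was 0.709 and 0.711 at the ends and 0.331 over all. The 100 lowest ranks held 6 DP-induced genes and the 100 highest 0. The first ranks were those of Ccdc167 (-3.10) and Rnf225 (-2.94, adjusted p = 0.100), and the last those of Scly (2.66) and Atp8a2 (2.95). At the upper end by moderated t, Tedc1 had 1.57 (SE 0.302, adjusted p = 0.116), Lefty1, a ligand antagonist of the TGF-beta family, 2.16, and Scly, a selenocysteine lyase, 2.66. Psmc4, a proteasome ATPase, and Snrpb2, a spliceosome protein, had 0.88 (SE 0.187) and 0.80 (SE 0.192), but their other probe sets had 0.16 and -0.05. Psmc4 went from 5501 to 3737 and from 6464 to 3945 in the control lines, and from 6419 to 6707 and from 4251 to 5777 in the triCH1 lines. Its DP signals were thus lower in both control lines, and none of these 5 genes passed.

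DP lowered 3 genes on average over the lines by at least 1 on the log2 scale (0.0261% of those ranked), Ccl7, Iffo1 and Svip. Their CH1 differences were 0.55, 0.61 and 0.77, with SE of 0.427 to 0.638. Ccl7, a chemokine for monocytes, went from 671 to 214 and from 763 to 280.1 in the control lines and from 386 to 127 and from 288 to 213 in the triCH1 lines. Its level differed between the classes before DP, and the fall in triCH1flox1 was nearly the same as that in flox2.

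The arrays with TSA were not used in the ranking and allow the same difference to be formed again in the same lines. In cells with TSA 0 genes passed the test of the CH1 difference (limma, 477 or 4.15% at an unadjusted p under 0.05). Of the 80 DP-induced genes, 56 had a value below 0 (51.8% of all genes), with a median of -0.21 against -0.02 over all genes. Both triCH1 changes were below both control changes for 33 of them, against 19.0% of all genes. The median DP change of the 80 genes with TSA was 0.43 in the control and 0.31 in the triCH1 lines, against 1.65 and 1.30 without it. The 80 genes were chosen for their rise without TSA, which by itself can make the values without TSA larger. Over the 80 genes the values without and with TSA had a Spearman correlation of 0.26 and a Pearson correlation of 0.37, as a description over genes of the same 4 lines.

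Ier3 had a CH1 difference of -1.02 with TSA (SE 0.168, adjusted p = 0.169), against -0.98 without. With TSA its signals went from 2672 to 9330 and from 2451 to 8099 in the control lines and from 3279 to 5207 and from 2341 to 4076 in the triCH1 lines. Egln3 had -0.28 (SE 0.282) with TSA, as its signals went from 571 to 902 and from 603 to 924 in the control and from 402 to 446 and from 317 to 468 in the triCH1 lines. The change of its CH1 difference with TSA was 1.78 (SE 0.399, adjusted p = 0.842). Ero1a and Ndrg1 had -0.55 and -0.78, and Ppp1r3c -1.83 (SE 0.687). The test of this change over all genes, added after the data were seen, had 0 genes past the threshold and 642 (5.59%) at an unadjusted p under 0.05.

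**Figure D4:**
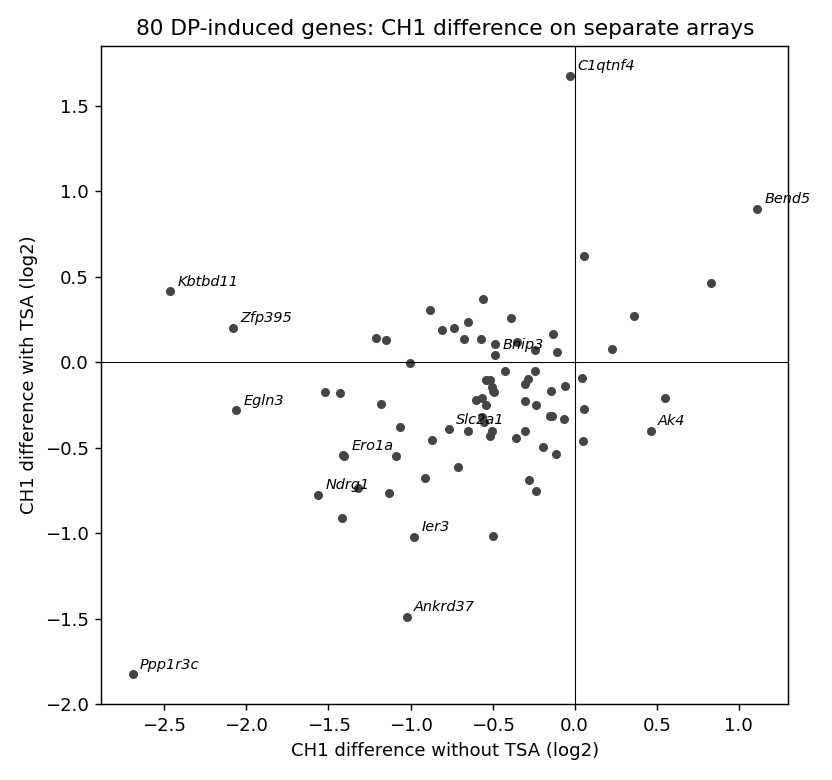
CH1 difference (log2) of the 80 DP-induced genes on the arrays without TSA (horizontal axis) and on the separate arrays with TSA (vertical axis), 1 point per gene and without error bars. Below 0 are 70 genes without and 56 with TSA; Ier3 has about the same value on both axes, and Egln3, Zfp395 and Kbtbd11 lie near or above 0 with TSA.

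Finally, the upstream windows shown above were searched in all genes. Of the 80 DP-induced genes 60 matched the RefSeq table, and 49 of these (81.7%) had ACGTG or GCGTG on either strand in the 250 bases of at least 1 start site, against 62.3% of the 9313 ranked genes with a window. ACGTG alone was found in 32 (53.3%), against 25.4%. Among the 40 DP-induced genes with the lower CH1 differences, 26 of 30 with a window (86.7%) held either motif and 63.3% ACGTG, and among the 40 with the higher values 23 of 30 (76.7%) and 43.3%. The windows of the DP-induced genes had a median of 18 CpG, against 16 over all ranked genes. The shares were not tested, genes with several start sites have more windows, and a match is only a run of letters.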

How the data were processed

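RNA of 16 cultures was measured on Affymetrix mouse genome arrays. Per the labels, the authors deposited for each probe set an intensity from Affymetrix's statistical algorithm, scaled to a target of 500; the 2% trimmed mean of each array was checked and was 500. Scaling factors in the labels ran from 4.36 to 6.20, and a higher factor also scales noise. Each column was matched to its sample by accession, with 0 columns left over, and the software version is not given in the sources used here.

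Of 45101 probe sets, 64 were controls, 34945 had 1 gene symbol, 932 several and 9160 none in the platform table used, and the last 2 kinds were left out. Values were log2(signal + 50). A probe set passed with a signal of at least 200 on 2 of the 16 arrays (19895 did), and the brightest of a gene's passing probe sets was used. This left 11481 genes, 5085 of them with several probe sets; for 10473 the filter was also met within the 8 arrays without TSA. Folds of genes with low signal are understated by the pseudocount.

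All 16 arrays entered 1 linear model in limma (version 3.58.1, R 4.3.3) with 8 group means, the line nested in its class as replicate block, and a variance trend (6 residual and 10.4 prior degrees of freedom). The pairing comes from the labels, as each line received every treatment; deviations of the lines from their group means had correlations between treatments of 0.160 to 0.328 in the control and 0.077 to 0.320 in the triCH1 class (6 pairs of treatments each). P-values were adjusted by Benjamini and Hochberg over all ranked genes. The share kept is the triCH1 log2 rise as a percentage of the control log2 rise. Promoter windows and start sites are those of RefSeq (GRCm38.p6). Plots were made in matplotlib 3.10.9 (Python 3.11.15).

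Genes, the 27 lists (HIF targets by role, the HIF system, coactivators, other processes and cell type markers) and tests were chosen with earlier results of these data known. Genes were named if they passed the threshold, lay among the 15 lowest or 10 highest CH1 differences of the DP-induced genes, among the 5 lowest or highest moderated t values or among the lowered genes, belonged to a fixed set of known targets or to the HIF system or coactivator list, or had 1 of the 4 smallest p-values of a list. Slc2a3, Stc2, Slc16a3, Plod2 and Narf, and the genes at the ends of the whole ranking and at the filter, fall partly outside this rule and were chosen after their values were seen. Alternatives covered the pseudocount, the filter, the scaling, the probe sets, the block, the arrays in the fit, the variance trend and single lines and arrays. The steps were tested on simulated data, with normal noise of each gene's own spread. Of built-in CH1 differences of 0.5, 1 and 2 on the log2 scale, 1.42%, 21.2% and 51.7% were called. A gene that was not called may therefore still differ. Many more genes with a difference were built in than the 3 called in the data. The adjusted p-value depends on that number, so these percentages may not carry over to the data.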

Additional observations from a re-analysis of the deposited data

Results flagged for a closer look

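The test of the difference between the classes in their response to DP singled out 3 genes, with CH1 differences of -2.06 for Egln3, -1.40 for Ero1a and -1.56 for Ndrg1 (limma, n = 2 lines per class). All were lower in both pairs of lines. In each of them the DP signals of both triCH1 lines lay below those of both control lines. Over 15 other settings Egln3 passed in 8, Ero1a in 7 and Ndrg1 in 2.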

How the results depend on the processing

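The count of genes past the threshold in the CH1 difference without TSA was 0 with the 8 arrays without TSA alone in the fit, 0 with no variance trend and 0 without the flox2 DP array (an alternative chosen after seeing the data), and 0 to 0 when each line was left out in turn. Leaving out a line leaves its class with 1 line, which is then assumed to vary like the others. With no replicate block for the pairing by line, 2 genes passed. A pseudocount of 200 gave 4, the mean of all probe sets 4, quantile normalization 2 and no filter 2, and no setting called a gene higher. The count of lowered genes, 3, was 0 with a pseudocount of 200 and 1 with the 8 arrays alone, and ran from 1 to 5 when lines were left out. The median CH1 difference over DP-induced genes was -0.36 when they were taken from a mean rise of 0.5 (156 genes); under the other settings it ran from -0.62 to -0.45. Of the 80 genes, 63 to 72 were below 0 under all settings. Over 15 settings of 87 genes, signs turned beyond 1 SE in 12 cases of 10 genes: Fam162a, Fosl2, Iffo1 and Rgcc with the mean of all probe sets (0.057, 0.25, -0.19 and -0.20), and Egln2, Hif1an and Trp53i11 without the flox1 vehicle array (-0.002, -0.022 and -0.17). When lines were left out, values ran from -0.077 to 0.69 for Egln2, -1.40 to 0.13 for Epas1, -1.23 to 0.25 for Slc16a3, -0.083 to 1.62 for Svip and -0.09 to 1.19 for Trp53i11. Another 46 changes of sign, in 18 genes, were of values within 1 SE of 0. The cause was not tested. The number of lines limits the precision, and signals under 200 limit the order at both ends.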
